A study of Drosophila melanogaster with 4 samples.

Results

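The protein genes of the cytosolic ribosome were examined in whole *Drosophila melanogaster* embryos mutant for *how* and in wild-type embryos. Members were the genes whose only symbol in the platform annotation starts with RpL or RpS. *sta*, which the rule also admits, and the mitochondrial mRpL and mRpS genes were not among them; *sta* had no named probe set here. The rule gave 37 genes, each with 1 probe set, of 10844 genes named on the arrays and of 93 genes that carry such a symbol in the RefSeq table of the fly; the remaining genes were not analysed here. By lists drawn up with earlier results of these data known, 27 of them are the main copy of their protein, 7 are second copies encoded by a duplicated gene, and 3 are "-like" homologues that act in ribosome assembly.

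The *how* mutant embryos were homozygotes from mothers with *how* mutant germline clones, picked under a fluorescence microscope. Neither the maternal germ line nor the embryo thus carried a wild-type copy of *how*, which encodes the STAR-family RNA-binding protein HOW. The wild-type embryos were from the yw stock. Both were 3 to 5 h old and raised at 25 °C, and each group had 2 one-colour Affymetrix arrays. RNA was prepared 5 times per genotype, from about 100 embryos each, and combined. Whether the arrays of a group held separate pools is not said, so p-values measure the spread between arrays, which may be technical. The labels give neither the *how* allele nor the background of the mutant chromosomes. Whether any HOW remained is thus not known, and mutation of *how* and other differences between the stocks cannot be told apart. No probe set was named *how*, and its level was not analysed here.

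The ribosome is built from ribosomal RNA and a set of proteins that are needed in fixed proportions, and the genes of those proteins are among the most strongly transcribed in growing cells. In flies, loss of a single dose of many of these genes gives the Minute phenotype of slow development and thin bristles. An early embryo starts with ribosomes and ribosomal protein mRNAs deposited by the mother. Some fly ribosomal proteins have a second gene, and *RpS5b*, *RpS10a*, *RpS19b* and *RpL22-like* are known mainly from the germ line. No sequence is printed, since no sequence table accompanied the files.

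The arrays held 14010 probe sets, 44 of them controls, with values on a linear scale of MAS5 signal. The median signal of gene probe sets was 82.1 and 75.5 on the mutant arrays and 76.1 and 79.8 on the wild-type arrays. At the bright end the arrays parted: the 99.9th percentile was 13540 and 15116 on the mutant arrays and 12908 and 17983 on the wild-type arrays. The 99th percentile lay closer, at 5294 and 5238 on the mutant arrays and 5034 and 5320 on the wild-type arrays. Ribosomal protein probe sets are themselves part of the bright end, with 26 of the 37 among the 100 brightest probe sets. Wild-type array 2 thus stood apart at the very brightest signals. Values that move with it are given with and without it for the medians and for some of the genes. Among the genes given only with it are *RpL3*, *RpL32* and *RpL37A*. For these, wild-type array 2 lay above wild-type array 1 by 0.57, 0.52 and 0.58 on the log2 scale. Genes of the stage were measured in both groups, with *sna* at 1948 and 1829 in the mutant, against 2059 and 2154 in wild type, and *twi* at 359 and 279.7 in the mutant, against 263 and 409 in wild type.

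Of the ribosomal protein genes, *RpS10a* rose in the mutant, and none fell. It was the only 1 of the 34 members bright enough to be tested that passed, at an adjusted p under 0.05 in limma's moderated test, where 3.24% of the 6855 genes tested passed (1.87% higher and 1.37% lower; 3.04% of 8380 probe sets). At an unadjusted p under 0.05 there were 4 members, *RpS10a*, *RpS19b*, *RpL37-2* and *RpL24-like*, against 16.4% of all genes tested. None of the 27 main copies passed, or had an unadjusted p under 0.05. With the replicate number as a block, *RpL37-2* and *RpL24-like* also passed, giving 3 of 34 members, where 9.92% of all genes then did. In these whole-embryo samples fewer cells of a type and less RNA per cell cannot be told apart.

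**Figure D1:**
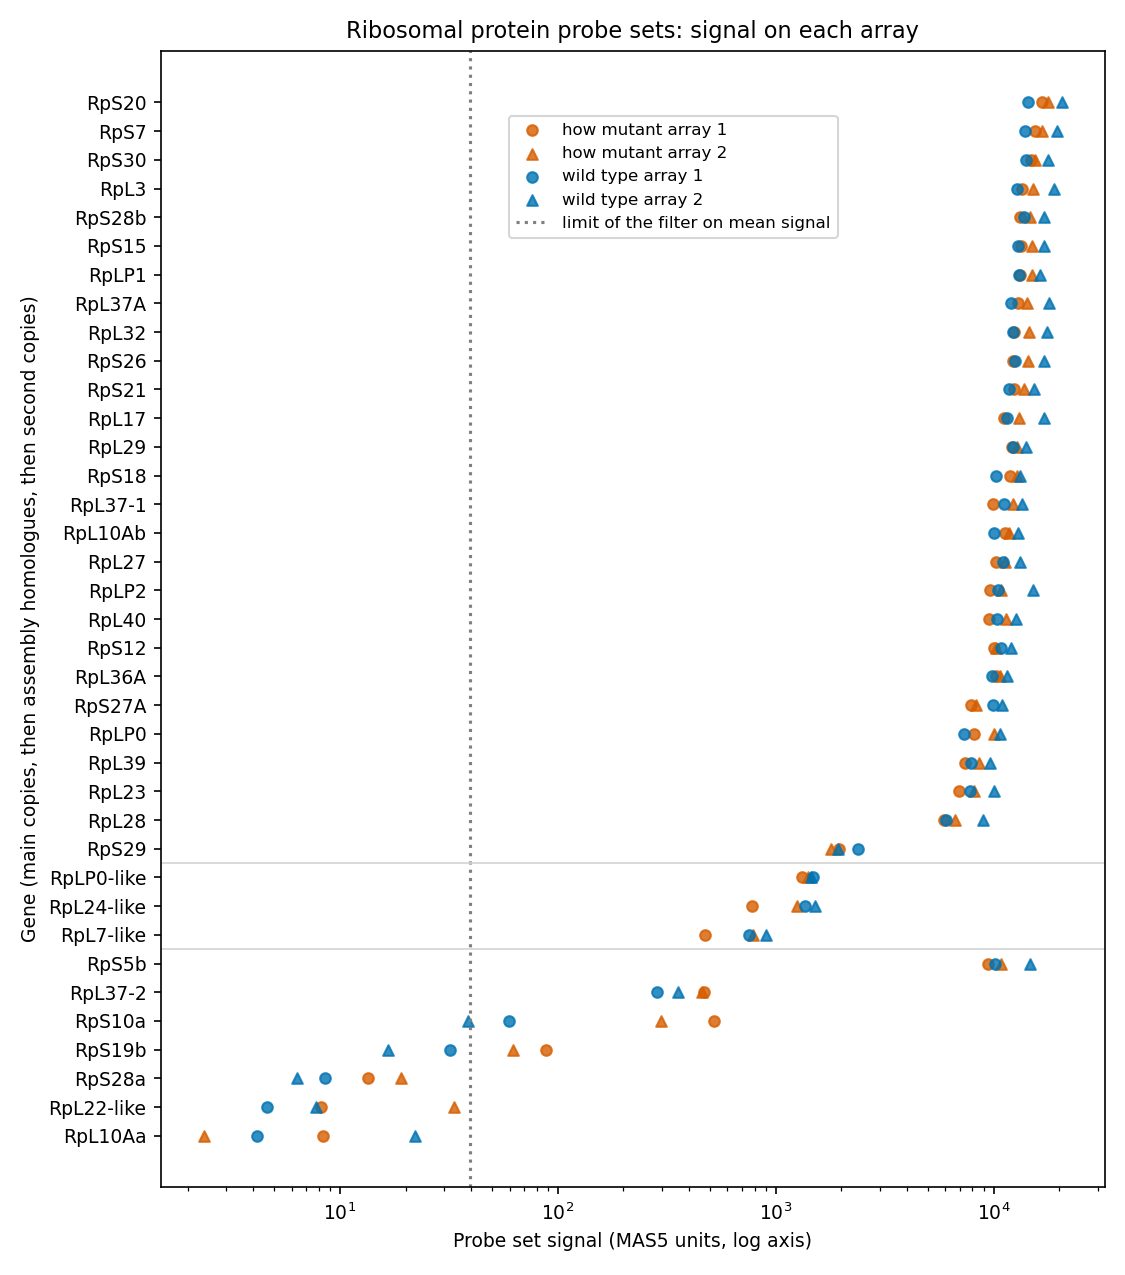
Signal of each of the 37 probe sets on the 4 arrays, on a log axis. Orange marks *how* mutant and blue wild-type arrays, circles array 1 and triangles array 2; the dotted line is the mean signal of 39.5 below which probe sets were not tested. Among the main copies at the top, the blue triangle lies farthest right in all but *RpS29*, and *RpS10a* and *RpS19b* are the second copies whose colours part most clearly above the dimmest signals.

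The main copies were bright and close together in the groups. Their signals ran from 1800 to 20579, and the log2 change, mutant minus wild type, ran from -0.37 (*RpS27A*) to 0.09 (*RpS18*) with a median of -0.13, a fold of 0.915. Of the 27, 24 lay below 0, which is 88.9%, where 49.7% of all genes tested did and their median change was 0.00296. The limma SE of a main copy was 0.15 to 0.23, larger than the median change. The 95% intervals of the 27 folds reached from 0.575 at the lowest (*RpLP2*) to 1.46 at the highest (*RpLP0*), and each included no change. These ends belong to different genes and are not a limit of detection. Differences within a gene's own interval were not resolved with 2 arrays a group.

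That small common shift depended on which arrays were used, and its direction turned only without wild-type array 2. The median signal of the main copies was 11301 and 12839 on the mutant arrays and 11154 and 14054 on the wild-type arrays. For 26 of 27 genes wild-type array 2 was the highest of the 4. Wild-type array 1 was the lowest for 13, and mutant array 1 for 13 others. Mutant array 1 lay above wild-type array 1 for 13 of 27, with a median log2 difference of -0.02, whereas mutant array 2 lay below wild-type array 2 for all 27, with a median of -0.21. The wild-type arrays differed from each other by a median of 0.37 and the mutant arrays by 0.16, both more than the groups did. Without wild-type array 2 the median change was 0.08 and 7 of 27 lay below 0. Without wild-type array 1 it was -0.28 and all 27 did. Without mutant array 1 it was -0.03 and 17 of 27 did. Quantile normalization, which gives every array the same distribution, left a median of -0.04 with 17 of 27 below 0. The median over 15 probe sets of poly-A control RNAs was 45.4 and 80.6 on the mutant arrays and 46.3 and 92.3 on the wild-type arrays, so array 2 of each group was also the brighter for these; their part in the result was not tested.

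**Figure D2:**
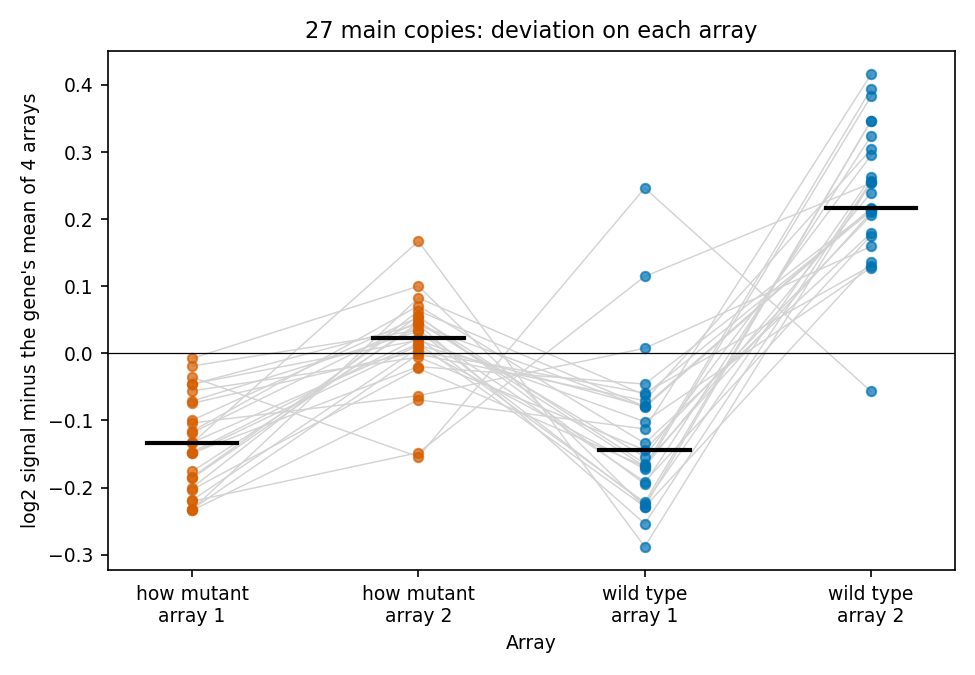
Log2 signal of the 27 main copies on each array after subtraction of the gene's mean over the 4 arrays; grey lines join a gene and black bars are medians. The medians are -0.13 and 0.02 on the mutant arrays and -0.14 and 0.22 on the wild-type arrays, so the spread within the wild-type group exceeds the distance between groups.

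Among the main copies of the large subunit, the 16 genes had a median log2 change of -0.13, and 14 lay below 0. *RpLP0*, *RpLP1* and *RpLP2* encode the stalk that recruits translation factors. *RpLP2* had signals of 9632 and 10798 in the mutant, against 10478 and 15112 in wild type, a log2 change of -0.30 ± 0.21 (SE; limma adjusted p = 0.549). Its groups overlapped, and without wild-type array 2 the change was -0.04. *RpLP0* had 8154 and 10044 in the mutant, against 7326 and 10673 in wild type, a change of 0.03 that was -0.24 without wild-type array 1, and *RpLP1* changed by -0.05. The stalk genes thus showed no common direction.

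*RpL10Ab*, whose protein forms the mobile stalk where spent tRNA leaves, had signals of 11301 and 11725 in the mutant, against 10028 and 12931 in wild type, a log2 change of 0.02 ± 0.19 (SE). *RpL17* and *RpL39*, whose products lie at or near the exit tunnel, changed by -0.21 and -0.13. *RpL23* and *RpL28* each changed by -0.23. Without wild-type array 2 the values were 0.07 for *RpL17*, -0.05 for *RpL23* and 0.06 for *RpL28*, so the direction of *RpL17* and *RpL28* turned. *RpL3*, near the peptidyl transferase centre, changed by -0.12. *RpL32*, widely used in flies as a reference gene under the name rp49, had 12348 and 14587 in the mutant, against 12262 and 17562 in wild type, a change of -0.13 ± 0.22 (SE). The remaining large-subunit genes, *RpL27*, *RpL29*, *RpL36A*, *RpL37-1*, *RpL37A* and *RpL40*, changed by -0.17 to -0.03. The mutant and wild-type arrays overlapped for each of the 16.

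Among the 11 main copies of the small subunit the median log2 change was -0.07, and 10 lay below 0. *RpS27A*, which encodes ubiquitin fused to a small-subunit protein, had signals of 7903 and 8311 in the mutant, against 9970 and 10980 in wild type. Both mutant arrays lay below both wild-type arrays, by a log2 change of -0.37 ± 0.16 (SE; limma adjusted p = 0.314), which did not pass. *RpS12*, whose protein takes part in cell competition in flies, had 10025 and 10312 in the mutant, against 10830 and 12030 in wild type, also without overlap, and a change of -0.17. These were 2 of the 27 main copies with both mutant arrays lower, 7.41%, where 23.4% of all genes tested were separated in that direction. No main copy had both mutant arrays higher, where 24.4% of all genes did. For the 26 of 27 with wild-type array 2 as the highest array, that separation was not possible. *RpL40*, the other ubiquitin fusion gene, changed by -0.14 with overlapping groups.

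The brightest probe sets of the family were those of the small-subunit genes *RpS20*, *RpS7* and *RpS30*, which ranked 3, 7 and 9 of all gene probe sets. *RpS20* had signals of 16683 and 17747 in the mutant, between 14445 and 20579 in wild type, and a change of -0.00291. *RpS7* and *RpS30* changed by -0.04 and -0.06, and likewise had both mutant arrays between the wild-type arrays. Without wild-type array 2 the change of *RpS20* was 0.25 and that of *RpS7* 0.21. *RpS18* had 11917 and 12839 in the mutant, against 10222 and 13165 in wild type, the most positive change of a main copy at 0.09 ± 0.19 (SE). *RpS15*, *RpS21*, *RpS26* and *RpS28b* changed by -0.07, -0.05, -0.14 and -0.14. *RpS29*, the dimmest main copy, had 1954 and 1800 in the mutant, against 2375 and 1925 in wild type, a change of -0.19, and was the one main copy lower on array 2 than on array 1 in each group.

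Taking each main copy relative to the mean of all main copies on the same array, a comparison chosen once the data had been seen, removed the shared array difference. The relative change then ran from -0.25 to 0.21 on the log2 scale. *RpS18* lay at 0.22 and 0.17 on the mutant arrays, against -0.02 and -0.01 on the wild-type arrays. *RpS27A* lay at -0.38 and -0.45 on the mutant arrays, against -0.05 and -0.27 on the wild-type arrays. For 7 of 27 the mutant arrays lay above both wild-type arrays (28.2% of all genes tested did on this measure) and for 3 below (11.2%). The main copies are centred on their own mean here and other genes are not, so these shares were not compared by a test.

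**Figure D3:**
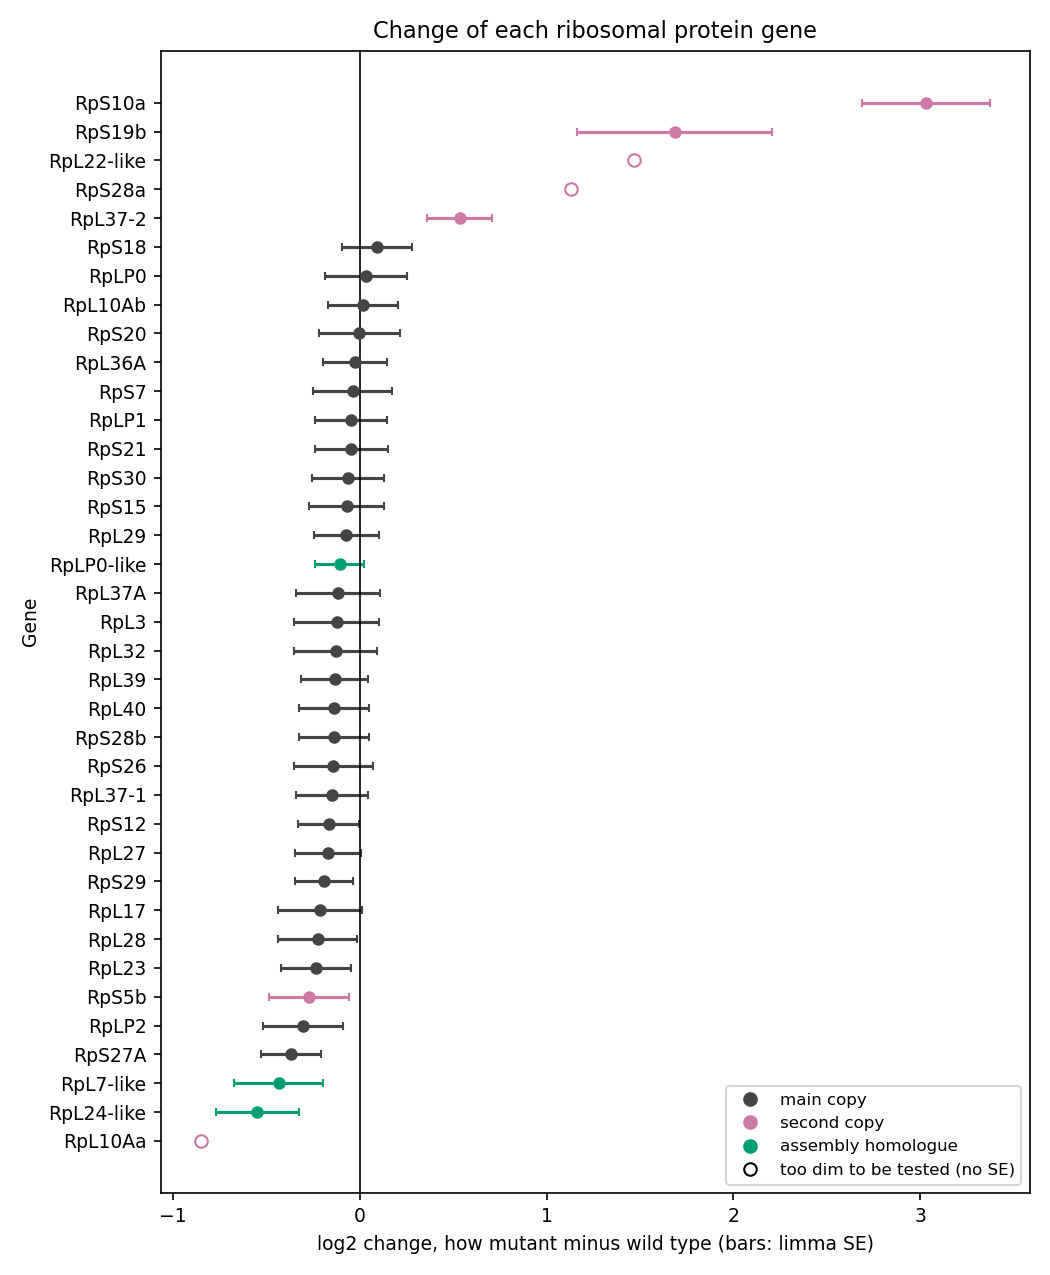
Log2 change of the 37 genes, as mutant minus wild type; bars are the SE from limma (2 arrays a group); open points were too dim to be tested. Main copies lie between -0.37 and 0.09, and *RpS10a* stands at 3.03.

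The second copies behaved unlike one another. *RpS10a* (3R, 27652760 to 27653363 in Release 6 plus ISO1 MT), a second gene for a small-subunit protein near the mRNA entry side, had signals of 518 and 297 in the mutant, against 59.5 and 38.7 in wild type. The lower mutant array was still far above both wild-type arrays. The means were 408 ± 156 in the mutant and 49.1 ± 14.7 in wild type (SD, n = 2), a log2 change of 3.03 ± 0.34 (SE; limma adjusted p = 0.00417), or 8.18-fold with a 95% interval of 4.72 to 14.2. Since the wild-type signals lay close to the filter's limit of 39.5, the size of the fold is uncertain, and with 50 added to every signal it was 4.51. The call was kept when any 1 array was left out, with a log2 change of 2.63 to 3.43 and limma adjusted p of 0.00868 to 0.0324; it was lost with no filter on dim probe sets (limma adjusted p = 0.146). No probe set was named for *RpS10b*, the main copy, so the pair was not compared, and whether the probes separate the copies was not tested.

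*RpS19b* (3R, 23932729 to 23933530), a second gene for a small-subunit protein needed for maturation of that subunit, had signals of 88.0 and 62.6 in the mutant, against 32.1 and 16.6 in wild type. The groups did not overlap, with a log2 change of 1.69 ± 0.52 (SE; limma adjusted p = 0.161), which did not pass. It entered the test only through its mutant arrays: its geometric mean of 41.4 was just inside the limit of 39.5, and that of *RpS28a*, the next member down, was 10.9. With 50 added its fold was 1.69. *RpS19a*, its main copy, had no named probe set here.

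*RpL37-2* (2R, 23100057 to 23100478) is a second gene for a zinc-binding large-subunit protein. Its signals were 467 and 458 in the mutant, against 285 and 357 in wild type, without overlap. The log2 change was 0.54 ± 0.18 (SE; limma adjusted p = 0.183), which did not pass, except with the replicate number as a block (limma adjusted p = 0.0441). Its main copy *RpL37-1*, on the X chromosome, had 9910 and 12329 in the mutant, against 11154 and 13490 in wild type, a change of -0.15. Within the arrays, the log2 ratio of *RpL37-2* to *RpL37-1* was -4.41 and -4.75 in the mutant, against -5.29 and -5.24 in wild type. The ratio was thus 0.69 higher in the mutant on the log2 scale, without overlap (exact permutation test, two-sided, p = 0.333, the smallest that 2 against 2 arrays allow; 0.519 after Benjamini-Hochberg adjustment over 14 such comparisons).

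*RpS5b* (3R, 14900432 to 14901563), a second gene for a small-subunit protein, was as bright as main copies, with signals of 9466 and 10792 in the mutant, against 10183 and 14657 in wild type. It followed the pattern of the main copies, with wild-type array 2 highest, and its log2 change was -0.27 ± 0.21 (SE; limma adjusted p = 0.598), or -0.01 without wild-type array 2. Whether its probes also take up transcripts of *RpS5a*, the other copy, was not tested.

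The remaining second copies were too dim to be tested. *RpS28a* (3R, 30022345 to 30022648) had 13.5 and 19.1 in the mutant, against 8.51 and 6.35 in wild type, whereas its main copy *RpS28b* had 13167 and 14725 in the mutant, against 13826 and 16958 in wild type. The within-array ratio of these copies was 1.27 higher in the mutant on the log2 scale, without overlap (exact permutation p = 0.333, two-sided), but 0.34 with 50 added, so its size rests on signals near the low end. *RpL22-like* had 8.16 and 33.4 in the mutant, against 4.60 and 7.74 in wild type. *RpL10Aa* had 8.36 and 2.38 in the mutant, against 4.17 and 22.0 in wild type, in overlapping groups.

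**Figure D4:**
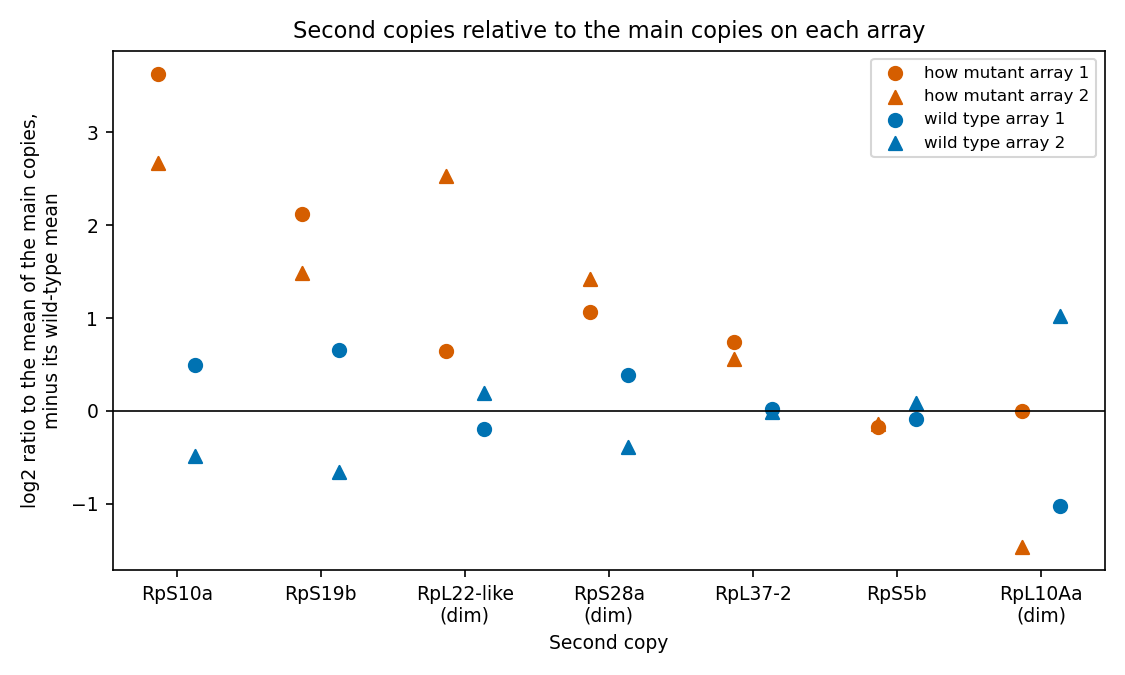
Log2 ratio of each second copy to the mean of the 27 main copies on the same array, minus the mean of that ratio on the wild-type arrays; mutant arrays are orange and on the left of each pair, wild-type arrays blue. The ratio of *RpS10a* was 3.15 higher in the mutant, that of *RpS19b* 1.80 and that of *RpL37-2* 0.65, while that of *RpS5b* was -0.16 relative to wild type.

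The second copies were also set against the mean of the main copies on the same array, since most partner genes had no named probe set. This comparison was added after the data had been seen. On it *RpS10a* was 3.15 higher in the mutant on the log2 scale, *RpS19b* 1.80 and *RpL37-2* 0.65. In each case both mutant arrays lay above both wild-type arrays, as for 28.2% of all genes tested on this measure, with an exact permutation p of 0.333, two-sided. With 50 added to every signal the values were 2.29 for *RpS10a* and 0.87 for *RpS19b*, and without an array that of *RpS19b* was 1.14 (wild-type array 2 left out) to 2.46 (wild-type array 1 left out). *RpS28a* and *RpL22-like*, at 1.25 and 1.58, were separated the same way at signals too dim to be tested, and had 0.32 and 0.43 with 50 added. *RpL22-like* had 2.53 without mutant array 1 and 0.64 without mutant array 2. *RpS5b* was the second copy with the smallest such change, -0.16, and was separated in the other direction, with ratios of -0.12 and -0.08 in the mutant, against -0.02 and 0.14 in wild type (exact permutation p = 0.333, two-sided), as were 11.2% of all genes tested.

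The homologues that act in ribosome assembly lay below 0 in all 3 cases and did not pass. *RpL24-like*, whose relative in yeast holds a place on the large subunit until the ribosomal protein replaces it, had signals of 775 and 1249 in the mutant, against 1369 and 1510 in wild type. Its groups did not overlap, with a log2 change of -0.55 ± 0.22 (SE; limma adjusted p = 0.28), and it passed with the replicate number as a block (limma adjusted p = 0.0126). *RpL7-like*, a nucleolar relative of RpL7, had 476 and 783 in the mutant, against 756 and 899.99 in wild type, a change of -0.43 ± 0.24 (SE; limma adjusted p = 0.42), with overlapping groups. *RpLP0-like*, which in yeast precedes the stalk base on the maturing subunit, had 1320 and 1405 in the mutant, against 1491 and 1445 in wild type, a change of -0.11. The changes of *RpL24-like* and *RpL7-like* rested mainly on mutant array 1, and were -0.20 and -0.07 without it. Against *RpLP0*, the within-array ratio of *RpLP0-like* changed by -0.14 in overlapping groups (exact permutation p = 1, two-sided).

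Genes of 4 other lists, on ribosome biogenesis, growth regulation, translation factors and the mitochondrial ribosome, did not pass either. Of 27 genes listed for ribosome biogenesis, 0 passed, the median log2 change was -0.06 and 17 lay below 0. The list holds nucleolar factors and subunits of RNA polymerase I, but also *mia* and *Gnf1*, which are not established genes of ribosome biogenesis. The smallest p-values were those of *Sbds*, which acts in release of the large subunit (-0.56 ± 0.20, SE, limma adjusted p = 0.209), and *mia* (0.46). Of 13 regulators of growth 0 passed (median -0.03; *La*, which binds the ends of polymerase III transcripts, -0.57, limma adjusted p = 0.0919, and *S6k*, the kinase of a ribosomal protein, 0.28). Of 36 translation factor genes 0 passed (median -0.07; *eIF3c* -0.56 and *eIF5B* 0.59, limma adjusted p = 0.0873 and 0.117). Of 64 mitochondrial ribosomal protein genes 0 passed (median -0.04; *mRpL43* -0.84 and *mRpS16* -0.46). At an unadjusted p under 0.05 there were 3, 1, 4 and 5 genes in these lists, in the same order, where 16.4% of all genes tested had such a p and 3.24% passed. The medians of these 4 lists lay between -0.07 and -0.03.

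**Figure D5:**
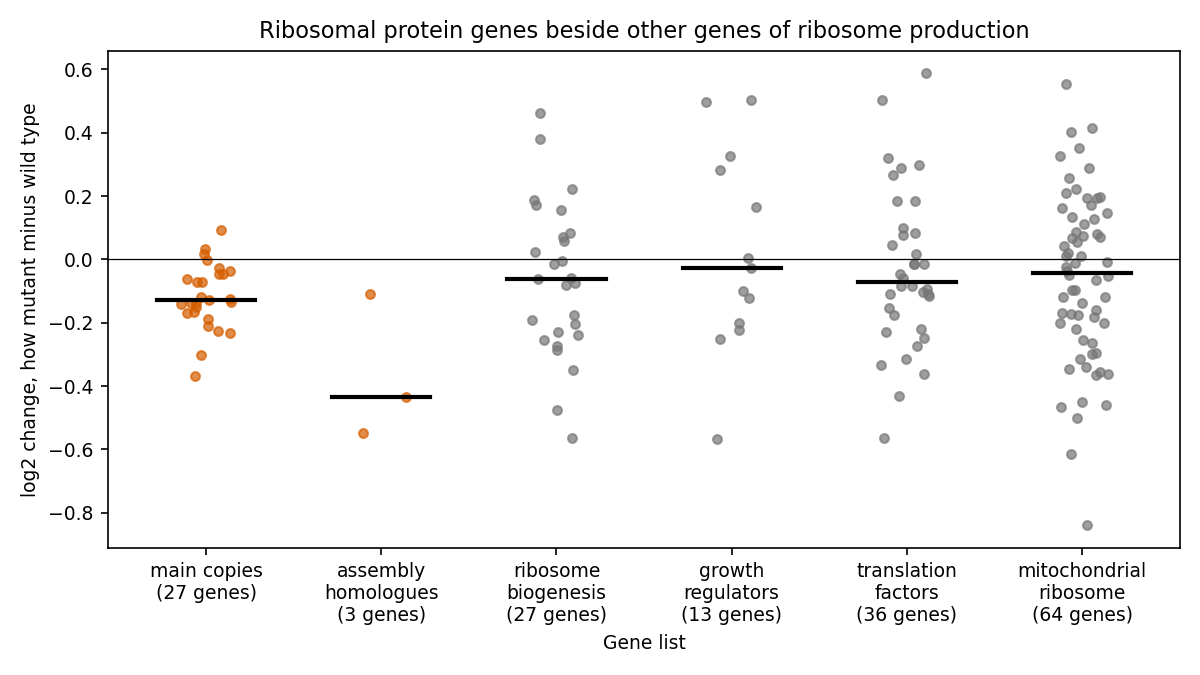
Log2 change, mutant minus wild type, of the tested genes of each list, with medians as black bars. The main copies (orange, far left) and assembly homologues (orange, 3 genes) stand beside lists in grey; main copies are spread less than the mitochondrial and translation factor genes, with a median of -0.13 against -0.04 and -0.07.

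Some germ-line genes also changed. Of 18 germ-line and pole cell genes with a probe set, 11 were bright enough to be tested. Of these, 3 passed as higher and 1 as lower, where 1.87% and 1.37% of all genes tested did. *spn-E*, *aub* and *pgc* rose by 1.79, 1.11 and 1.64 (limma adjusted p = 0.0136, 0.0267 and 0.0497), *tej* fell by 2.41, and the list's median was 0.33. The signals of *pgc* were 112 and 114 in the mutant, against 35.7 and 36.8 in wild type, so that its wild-type arrays lay below the limit of 39.5 and it passed the filter through the mutant. *osk*, which directs assembly of the germ plasm and was too dim on average to be tested, had signals of 105 and 101 in the mutant, against 24.8 and 7.09 in wild type. The germ-line helicase gene *vas*, also too dim, had 31.8 and 47.9 in the mutant, against 3.97 and 18.8 in wild type. Both were picked after their values were seen. Of the other untested germ-line genes, *bam* was higher on both mutant arrays, and *krimp*, *qin*, *bgcn* and *piwi* had overlapping groups. Among the tested genes *zpg* changed by -0.69 without passing (limma adjusted p = 0.199). The summed signal of the 18 was 4952 and 5181 in the mutant, against 4156 and 4425 in wild type. A few bright genes make up most of this sum. *Sxl* alone had 1962 and 2126 in the mutant, against 1821 and 2001 in wild type, a log2 change of 0.10. None of 4 tested eggshell and yolk genes, of 9 with a probe set, passed, where 3.24% of all genes tested did. None had an unadjusted p under 0.05 in limma either, where 16.4% of all genes tested did. The summed signals of the 9 were 504 and 382 in the mutant, against 465 and 505 in wild type. Of 12 genes of late differentiation, 10 passed as lower, where 1.37% of all genes tested did. These 12 are markers of older embryos and were listed with their falls already known. Their summed signals were 1355 and 1506 in the mutant, against 5537 and 5731 in wild type. Among those that passed were *Osi6*, *Mlc1*, *Ccp84Ag* and *Cpr65Ea*. The mutant signals of these 4 genes, 6.53 to 26.7, lay below the limit of 39.5, so they passed the filter through wild type and the size of their falls is uncertain. Of 10 tested stage markers (11 with a probe set) 0 passed, where 3.24% of all genes tested did, with a median of -0.00907. Of these markers 1 gene, *ush*, had an unadjusted p under 0.05 (log2 change 0.82, limma adjusted p = 0.0816). The eggshell and stage lists are too short for a count of 0 to be set apart from that share. The part of germ cells, maternal RNA or embryo age in the rise of *RpS10a* was not tested.

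By position, 13 of the 37 genes lie on 3R, the arm that carries *how*, 9 on 2R, 8 on 2L, 4 on 3L and 3 on X. Of the second copies, *RpS5b*, *RpS10a*, *RpS19b*, *RpS28a* and *RpL10Aa* lie on 3R. *RpS10a* is 5.61 Mb and *RpS19b* 1.89 Mb from *how*. On the same arm the main copies *RpS20*, *RpS7*, *RpS30*, *RpL3*, *RpL32*, *RpL27* and *RpS29* changed by -0.19 to -0.00291, and the homologue *RpL24-like* by -0.55. The part of chromosomal position in these changes was not tested.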

How the data were processed

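For each array the authors deposited a table of intensities, 1 per probe set. The submitters' processing notes name MAS5, with no version; scaling settings were not stated. The deposited intensities are linear and scaled, with a mean of 250.04 on every array once the highest and lowest 2% are left out. Groups and replicate numbers came from the sample titles. Nothing was rescaled for the main results.

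Signals under the 5th percentile (3.38) were set to it, log2 was taken, and gene probe sets with a mean under the 40th percentile (39.5) were left out, leaving 8380 of 13966. A linear model of group was fitted with lmFit and eBayes (trend) of limma 3.58.1, under R 4.3.3, to all of them, and p-values were Benjamini-Hochberg adjusted over them; 255 passed at 0.05. Precision is limited by 2 arrays a group. Copies were compared as within-array log2 ratios with exact permutation tests, since levels of different probe sets are not comparable. Symbols came from the platform annotation, updated by Entrez ID through the RefSeq table (12394 of 12443 probe sets with 1 symbol matched; 327 had several and 1196 none), and a gene was represented by its brightest probe set. The fit was tested on simulated data.

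Members, lists and the rule for named genes (all that passed, all second copies and homologues with their partners, the 5 extreme main copies each way, the 3 brightest; in other lists up to 4 that passed or the smallest p) were chosen with earlier results of these data known; *osk*, *vas*, *RpS12*, *RpS29* and other main copies were added after their values were seen. Alternatives were a replicate block, quantile normalization, median centring, other filters, 50 added, no trend, a robust fit, an adjusted p under 0.1, the mean over probe sets and each array left out.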

Additional observations from a re-analysis of the deposited data

How the results depend on the processing

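The number of ribosomal protein genes that passed, 1, was 3 with the replicate block (*RpS10a*, *RpL37-2* and *RpL24-like*; 9.92% of all genes then passed) and 0 with no filter, where limma gave 3 members an unadjusted p under 0.05; it was 1 under every other alternative run, always *RpS10a*, and leaving out an array gave 1 to 1. All probe sets that passed, 255, were 825 with the replicate block, 95 with no trend, 401 at an adjusted p under 0.1, 0 with no filter and 87 to 153 without an array. List members that passed, 14, were 22 with the replicate block, 7 with the 60th percentile filter, 9 with no trend, 0 with no filter and 8 to 11 without an array. Members below 0, 28 of 34, were 11 to 31 without an array, and main copies below 0, 24, were 7 to 27; the low values come from leaving out wild-type array 2. The median log2 change of the members, -0.13, was -0.28 to 0.0754 without an array, and that of the main copies -0.28 to 0.0839, highest without wild-type array 2. Without an array the within-array change was 0.91 to 1.62 for *RpS28a* to *RpS28b*, which was 0.34 with 50 added, 0.51 to 0.86 for *RpL37-2* to *RpL37-1*, -1.88 to 0.15 for *RpL10Aa* to *RpL10Ab* and -0.44 to 0.15 for *RpLP0-like* to *RpLP0*. Where an array was left out the lone array was taken to vary as the other group did. The cause of these moves was not tested. The replicate numbers are not said to mark a batch; deviations of same-numbered arrays correlated with r = 0.183 across probe sets, and the block changed no other member's call.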

Other observations

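The genomic neighbour of *RpS10a* moved the opposite way. *Mlc1*, a muscle myosin light chain gene, is the next gene on 3R in the RefSeq table, 3714 bases beyond the end of *RpS10a* (27657078 to 27660177), with 0 annotated genes starting between them. Its signals were 14.1 and 6.53 in the mutant, against 213 and 216 in wild type, a log2 change of -4.48 (limma adjusted p = 0.00417), while *RpS10a* changed by 3.03. The mutant signals of *Mlc1* lay below the limit of 39.5, and it passed the filter through its wild-type arrays, so the size of its change is uncertain. Of the 10 nearest tested genes, 5 on each side, *Mlc1* was the 1 that passed, where 3.24% of all genes tested did, and the others ranged from -0.89 (*dsd*) to 0.29 (*Hsdl2*). Around *RpS19b*, the 10 nearest had changes of -0.50 to 0.48. These neighbours were looked at after the data were seen.

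The 3 control probe sets for 18S ribosomal RNA were at the low end on every array, with signals of 1.37 to 5.83 in the mutant and 0.816 to 3.87 in wild type in overlapping groups, so the RNA part of the ribosome was not measurable here. The probe sets annotated to both *euc* and *RpLP0* and to both *CG14645* and *RpL36A* were dim (70.3 ± 1.20 and 18.1 ± 2.79 in the mutant, 89.3 ± 27.4 and 19.1 ± 5.30 in wild type, SD, n = 2) and were not counted among the members.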
